A study of Danio rerio with 4 samples.

Results

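De novo purine synthesis builds the purine ring, atom by atom, on an activated ribose phosphate, and ends in inosine monophosphate (IMP), from which AMP and GMP are made. The pathway was followed here through 10 genes, prps1a, ppat, gart, pfas, paics, adsl, atic, impdh1b, impdh2 and gmps, matched by symbol among the 30838 rows of the deposited table. All 10 were found, and all 10 passed the filter of a mean of at least 1 TPM (a transcript level per unit of gene length that sums to 1000000 in every library).

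The samples were 2 libraries from smu07 mutant and 2 libraries from sibling zebrafish larvae of the AB strain, taken at 4 days post fertilization with no treatment. The cells of all 4 libraries were sorted through a cd41:eGFP-low gate, which enriches hematopoietic stem and progenitor cells, and about 500 cells were lysed and amplified for each library. The series title links the study to slc20a1b, a phosphate transporter gene. The labels give neither the lesion carried by smu07 nor the genotypes pooled as siblings, which the series' design text calls wild type, nor whether replicates came from separate clutches or sorts. The p-values therefore measure only the spread between these libraries, which may be technical.

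Dividing cells use the pathway to supply RNA and DNA synthesis, whereas resting cells rely more on salvage of free bases and nucleosides. PRPP synthetase makes the activated ribose, the amidotransferase encoded by ppat commits it to purines, and the enzymes of gart, pfas, paics, adsl and atic carry the intermediate to IMP. IMP dehydrogenase and GMP synthetase then lead to guanine nucleotides, and adenylosuccinate synthetase and lyase to AMP. In zebrafish, loss of gart or paics is known to impair pigmentation and eye growth, and IMP dehydrogenase is the target of drugs that restrain lymphocyte division in mammals.

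Reads recovered from the TPM steps numbered at least 27570271 and 29253615 in the mutant libraries and at least 24480164 and 25955968 in the sibling libraries. Rows above 0 numbered 23881 and 23978 in the mutant libraries against 19528 and 19811 in the sibling libraries, and the part of this gap in the purine values was not tested. A pathway gene had at least 730 recovered reads in each library. That depth bears on counting error only, since reads of amplified cDNA do not count molecules. Of 12073 rows tested, 28.5% were called at an adjusted p under 0.05, 18.6% lower and 9.91% higher in the mutants. Lower calls made up 65.3% of calls, against 54.2% under median-of-ratios scaling, 51.1% under quantile normalization and 48.5% when TPM were rescaled to a total without ribosomal protein genes and mitochondrial rRNA. The progenitor gene myb read 8.81 and 14.3 TPM in the mutants against 11.9 and 10.9 TPM in the siblings and did not pass (log2 difference -0.02, limma adjusted p = 0.961). Another progenitor gene, runx1, rose to 15.7 and 14.6 TPM in the mutants, against 8.10 and 7.10 TPM in the siblings (log2 difference 0.91, limma adjusted p = 0.0129). The gate transcript itga2b, which encodes cd41, read 23.5 and 19.3 TPM in the mutants against 50.8 and 66.9 TPM in the siblings. In bulk libraries such as these, fewer cells of a type and less RNA per cell cannot be told apart.

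Several of the pathway's transcripts were called lower in the mutant libraries. Of the 10 genes 5 fell (prps1a, ppat, paics, atic and impdh2), 0 rose and 5 did not pass the test, beside 18.6% of all rows tested that were called lower (limma, Benjamini-Hochberg adjusted over all rows). In 9 of the 10 both mutant libraries lay below both sibling libraries, an order that 44.0% of all rows tested also had. The median log2 difference of the 10 genes was -0.53, against -0.14 over all rows tested. Over rows with a mean of at least 5 TPM, which all 10 genes had, the median was -0.23. When only those rows were tested, 29.9% of them were called lower, beside 6 of the 10 genes. In the remaining gene, gart, the libraries overlapped.

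**Figure D1:**
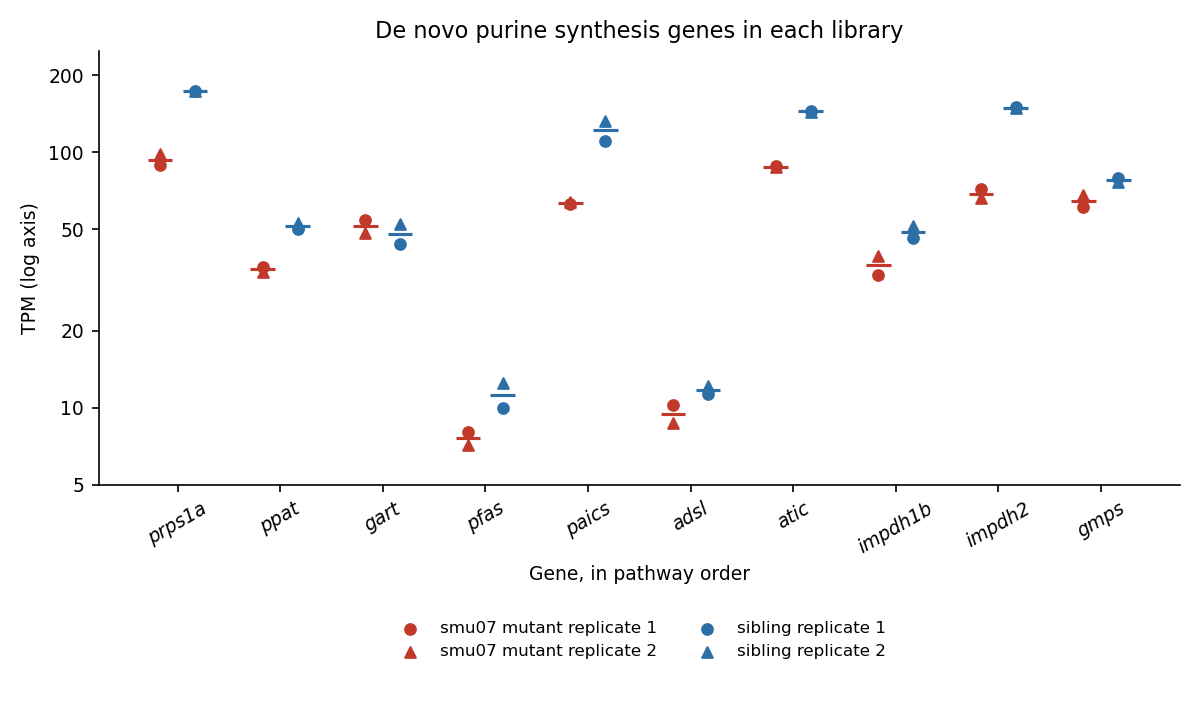
TPM (log axis) of the 10 genes in pathway order, with each library as a point and the mean of each group as a bar, smu07 mutants left of siblings. The mutant points lie below the sibling points for every gene but gart, where the groups overlap.

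The supply of activated ribose was represented by prps1a, a PRPP synthetase gene and the most abundant of the 10 transcripts in all 4 libraries. It read 89.0 and 98.4 TPM in the mutants against 174 and 174 TPM in the siblings, or 53.7% of the sibling mean. The sibling libraries were nearly equal, and both mutant libraries stood far below them. The log2 difference was -0.89 (SE 0.10, limma adjusted p = 0.00568).

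The committing amidotransferase gene ppat, whose enzyme takes nitrogen from glutamine, read 35.7 and 34.04 TPM in the mutants against 50.2 and 53.0 TPM in the siblings. The groups were clearly apart at a log2 difference of -0.55 (SE 0.11, limma adjusted p = 0.019). It did not pass under quantile normalization (log2 difference -0.32, limma adjusted p = 0.0967), in contrast to the other 4 genes that fell.

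The gene gart encodes a trifunctional enzyme that adds glycine and a folate-borne formyl group. It read 54.5 and 48.2 TPM in the mutants against 43.7 and 52.5 TPM in the siblings. The ranges overlapped, and the log2 difference of 0.10 did not pass (SE 0.14, 95% interval -0.24 to 0.43, limma adjusted p = 0.631). Its sign depended on a single library, since it was -0.03 without sibling replicate 1. A fall as large as that of atic (log2 difference -0.72) lay outside the interval of gart.

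The second glutamine-using step is catalysed by the product of pfas, which read 8.06 and 7.17 TPM in the mutants against 9.93 and 12.5 TPM in the siblings. The groups did not overlap, but the siblings differed from each other and the log2 difference of -0.50 did not pass (SE 0.18, 95% interval -0.94 to -0.06, limma adjusted p = 0.086). Without sibling replicate 1 it was -0.65.

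The bifunctional carboxylase and synthetase gene paics read 63.0 and 64.0 TPM in the mutants against 111 and 133 TPM in the siblings. The mutant libraries were nearly equal at 52.1% of the sibling mean, and the spread lay within the siblings. The log2 difference was -0.92 (SE 0.12, limma adjusted p = 0.00768). In the RefSeq annotation of GRCz12tu paics overlaps its neighbour ppat. Reads in the overlap cannot be assigned with certainty to either gene, because the strand setting of the counting is not given in the sources used here.

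Adenylosuccinate lyase, encoded by adsl, acts both on the way to IMP and at the end of the AMP branch. Its transcript read 10.2 and 8.68 TPM in the mutants against 11.3 and 12.2 TPM in the siblings. The libraries did not overlap, yet the gap was small and the log2 difference of -0.29 did not pass (SE 0.16, 95% interval -0.69 to 0.11, limma adjusted p = 0.221).

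The gene atic, whose bifunctional enzyme closes the ring to give IMP, had close replicates in both groups. It read 88.0 and 87.3 TPM in the mutants against 145 and 144 TPM in the siblings, or 60.5% of the sibling mean. The log2 difference was -0.72 (SE 0.09, limma adjusted p = 0.00712). The annotated span of atic overlaps that of fn1b in the same annotation. The fn1b row read 4.03 and 3.99 TPM in the mutants against 5.88 and 8.08 TPM in the siblings, far below the TPM of atic. TPM is scaled by gene length, and the gap in recovered reads was smaller. For fn1b these numbered at least 722 and 755 in the mutants and 891 and 1283 in the siblings. For atic they numbered at least 3611 and 3783 in the mutants and 5054 and 5244 in the siblings. The part of shared reads in the atic values was not tested.

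**Figure D2:**
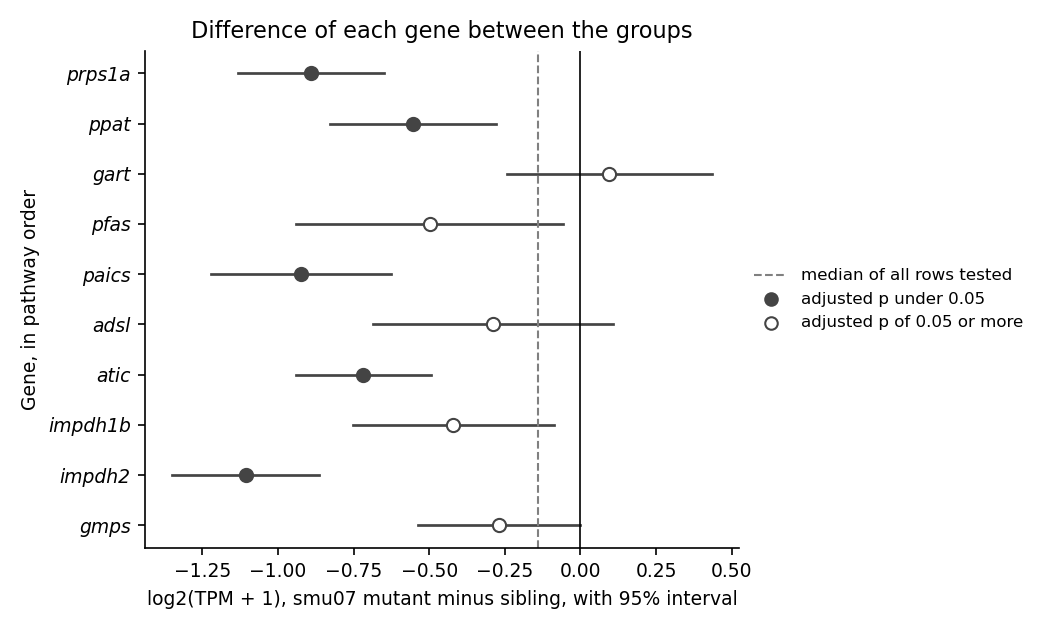
log2(TPM + 1) difference of each gene, smu07 mutant minus sibling, with its 95% interval from limma. Filled points have an adjusted p under 0.05, and the dashed line marks the median of all rows tested (-0.14). The interval of gart lies to the right of those of the 5 filled genes.

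The guanine branch held the largest difference of the pathway. IMP dehydrogenase, its rate-limiting enzyme, is encoded by impdh2 and impdh1b. The impdh2 transcript read 71.8 and 66.0 TPM in the mutants against 150 and 149 TPM in the siblings, or 46.1% of the sibling mean. Both mutant libraries were below every sibling value by a wide margin, with a log2 difference of -1.11 (SE 0.10, limma adjusted p = 0.00387). Its paralog impdh1b read 33.2 and 39.2 TPM in the mutants against 46.0 and 51.4 TPM in the siblings. The groups did not overlap, and the log2 difference of -0.42 did not pass (SE 0.14, 95% interval -0.75 to -0.09, limma adjusted p = 0.0636). It was -0.50 without sibling replicate 1, and it passed when only rows with a mean of at least 5 TPM were tested (limma adjusted p = 0.0477). In that form 6 of the 10 genes fell, beside 29.9% of all rows tested that were called lower. Paralogs can share reads, and how such reads were counted is not given in the sources used here.

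GMP synthetase, encoded by gmps, finishes the guanine branch. It read 60.8 and 67.9 TPM in the mutants against 79.1 and 76.2 TPM in the siblings. The gap between the groups was little wider than the gap within the mutants, and the log2 difference of -0.27 did not pass (SE 0.11, 95% interval -0.54 to -0.00078, limma adjusted p = 0.114).

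The order of levels changed between the groups. In the siblings prps1a stood highest, followed by impdh2, atic, paics and gmps, each separated from its neighbours in both libraries. Below them ppat, impdh1b and gart overlapped, as did adsl and pfas at the bottom. In the mutants prps1a and atic stood highest. Below them gmps overlapped both impdh2 and paics, while impdh2 stayed above paics in both mutant libraries. There gart, which was among the lower genes of the siblings, stood above both ppat and impdh1b in each library.

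The 10 genes together summed to 514 and 521 TPM in the mutants against 821 and 858 TPM in the siblings. The mutant mean of 518 ± 4.64 TPM was 61.6% of the sibling mean of 840 ± 26.4 TPM (SD, n = 2 libraries per group). The exact two-sided permutation test gave p = 0.333, the smallest that 2 libraries against 2 allow. Within this sum impdh2 took 14.0 and 12.7% in the mutants against 18.3 and 17.4% in the siblings, and prps1a took 17.3 and 18.9% against 21.3 and 20.3%. By contrast gart took 10.6 and 9.25% in the mutants against 5.32 and 6.12% in the siblings, and gmps took 11.8 and 13.03% against 9.64 and 8.88%. The share of atic hardly differed, at 17.1 and 16.8% in the mutants against 17.7 and 16.8% in the siblings.

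Ratios between genes of the same library are not altered when a library is scaled by a single factor. The ratio of gart to paics was 0.864 and 0.753 in the mutants against 0.394 and 0.395 in the siblings, and that of gart to ppat was 1.53 and 1.42 against 0.870 and 0.990. The neighbours paics and ppat also differed in extent, with a ratio of paics to ppat of 1.77 and 1.88 in the mutants against 2.21 and 2.51 in the siblings. Of the IMP dehydrogenase genes, impdh2 was 2.16 and 1.68 times as abundant as impdh1b in the mutants, against 3.26 and 2.90 times in the siblings. These ratios restate the values of the single genes above, and they are given as values and were not tested.

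**Figure D3:**
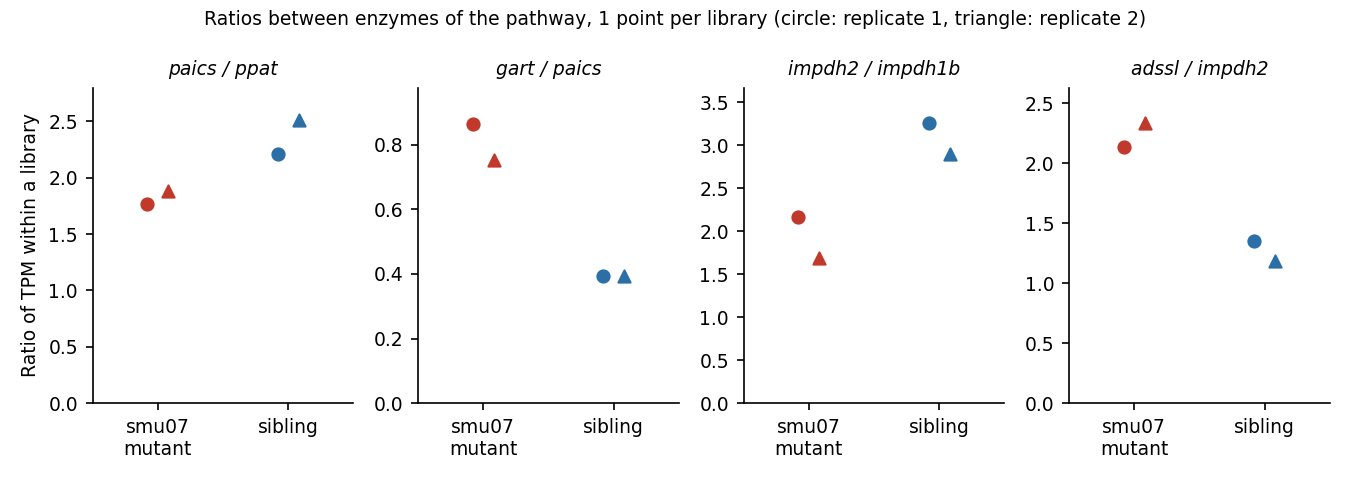
Ratio of TPM between pairs of pathway genes within each library, with smu07 mutants left of siblings and axes from 0. The gart to paics and adssl to impdh2 ratios are higher, and the paics to ppat and impdh2 to impdh1b ratios lower, in both mutant libraries.

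Of 14 alternative settings, prps1a, paics, atic and impdh2 passed in 12 and ppat in 11, and each call needed both mutant libraries. Without mutant replicate 1 or without mutant replicate 2, 0 of the 10 genes passed in limma, although 5 and 6 of them had an unadjusted p under 0.05, beside 24.0% and 25.9% of all rows. The lowest limma adjusted p among them was then 0.0972 and 0.0885. Over all rows 4 (0.0331%) and 3 (0.0248%) were called lower in these fits, and 0 higher. The differences themselves moved little, as with impdh2 at -1.17 and -1.05 and paics at -0.91 and -0.94. Without sibling replicate 1, 7 of the 10 genes fell, beside 26.6% of all rows, and without sibling replicate 2, 5 fell, beside 23.9% of all rows.

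**Figure D4:**
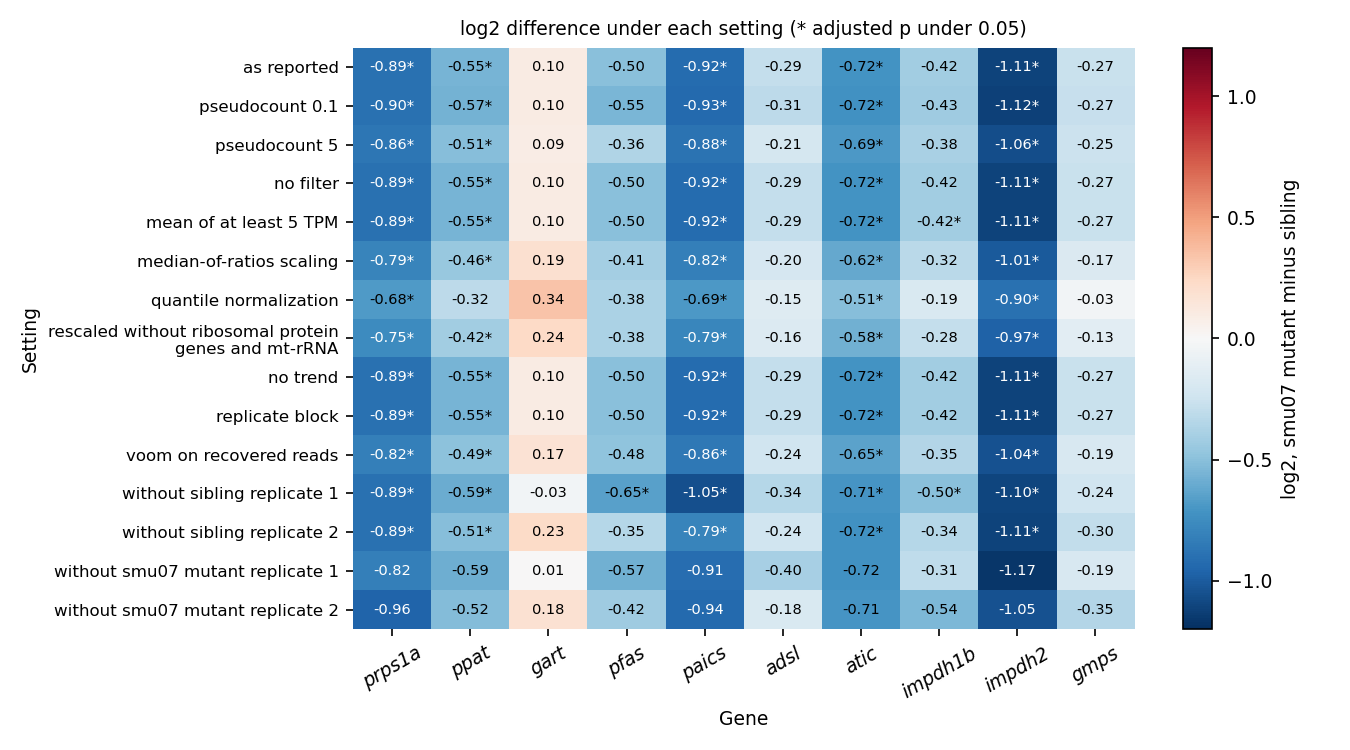
log2 difference of each gene (smu07 mutant minus sibling, colour and number) in each alternative setting, with a star where the adjusted p was under 0.05. The differences range from -0.96 to -0.68 for prps1a and from -1.17 to -0.90 for impdh2, and no gene has a star when a mutant library is left out.

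With TPM rescaled to a total without ribosomal protein genes and mitochondrial rRNA, the median of all rows moved up by 0.12 on the log2 scale. In that scaling the same 5 genes of the pathway passed, beside 11.3% of all rows that were called lower, and impdh2 stood at -0.97 and prps1a at -0.75. Under quantile normalization 4 passed, beside 11.5% of all rows. In each scaling 9 of the 10 differences stayed below 0.

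Other genes of the same steps were measured alongside. Of 6 found, 4 were tested, and of these 3 fell and 0 rose, with a median log2 difference of -0.50. Over all rows tested 18.6% were called lower and 9.91% higher, and with the filter of at least 5 TPM 29.9% were called lower. The same shares apply to the lists below. The second PRPP synthetase gene prps1b read 10.8 and 11.7 TPM in the mutants against 16.5 and 19.6 TPM in the siblings (log2 difference -0.63, limma adjusted p = 0.0313). The PRPP synthetase-associated protein genes prpsap1 and prpsap2, known as negative regulators of the synthetase in mammals, fell by 0.46 and 0.55 on the log2 scale. These calls depended on the scaling. Of the 4 genes 1 was called under median-of-ratios scaling and 1 with voom, and limma called 0 under quantile normalization and 0 with the rescaled TPM, where 1 and 3 of them had an unadjusted p under 0.05.

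The AMP branch opens with adenylosuccinate synthetase, represented by adssl, the most abundant gene of this group. It read 153 and 154 TPM in the mutants against 202 and 177 TPM in the siblings, and the log2 difference of -0.30 did not pass (SE 0.10, limma adjusted p = 0.075). Set against the gene that opens the guanine branch, adssl was 2.13 and 2.34 times as abundant as impdh2 in the mutants, against 1.349 and 1.19 times in the siblings. This ratio holds 1 gene of each branch. In the guanine branch impdh1b and gmps did not pass, at log2 differences of -0.42 and -0.27. The paralogs adss and impdh1a were below 1 TPM in every library. The related gene adssl1, which was not in this list, read 0.474 and 0.460 TPM in the mutants against 0.853 and 1.60 TPM in the siblings. Its mean lay below the filter of 1 TPM, so it was not tested.

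Purine salvage and breakdown genes, which recycle or degrade bases and nucleosides, moved in both directions. Of 29 found 18 were tested, and of these 5 fell, 1 rose and 12 did not pass, with a median log2 difference of -0.35. Beside these counts, 18.6% of all rows tested were called lower and 9.91% higher. The adenine phosphoribosyltransferase gene aprt read 32.0 and 33.9 TPM in the mutants against 48.0 and 50.7 TPM in the siblings (log2 difference -0.57, limma adjusted p = 0.0186). The gene itpa, whose enzyme clears inosine triphosphate, read 62.1 and 66.1 TPM against 133 and 118 TPM (-0.96, limma adjusted p = 0.00601). The IMP and GMP nucleotidase gene nt5c2a read 14.0 and 11.6 TPM in the mutants against 32.5 and 27.8 TPM in the siblings (-1.17, limma adjusted p = 0.00813).

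The single rise in this list was gda, a guanine deaminase gene, at 4.81 and 5.24 TPM in the mutants against 1.85 and 1.52 TPM in the siblings (log2 difference 1.17, limma adjusted p = 0.0127). The most abundant gene of the list, the nucleoside phosphorylase gene pnp5a, read 186 and 165 TPM in the mutants against 142 and 162 TPM in the siblings and did not pass (0.21, limma adjusted p = 0.211). The salvage gene hprt1l read 4.60 and 6.98 TPM in the mutants against 10.6 and 8.01 TPM in the siblings and did not pass (log2 difference -0.61, limma adjusted p = 0.106). The row hprt1 was listed at 0 in mutant replicate 1 and both siblings and at 0.0391 TPM in mutant replicate 2. Genes used by every dividing cell, such as cdk1, were also listed at 0 in all 4 libraries, so a 0 is not read as absence.

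Folate enzymes supply the formyl groups that the gart and atic enzymes consume. Of 15 tested genes 4 fell, 0 rose and 11 did not pass, with a median log2 difference of -0.29. Beside this count, 18.6% of all rows tested were called lower. The cytosolic serine hydroxymethyltransferase gene shmt1 read 128 and 129 TPM in the mutants against 168 and 168 TPM in the siblings (log2 difference -0.38, limma adjusted p = 0.0252). Its mitochondrial counterpart shmt2 read 40.7 and 43.7 TPM against 75.2 and 67.8 TPM (-0.74, limma adjusted p = 0.0102). The folate genes dhfr and mthfs fell by 0.39 and 0.70 in log2 terms. Fewer of these genes were called under other scalings, with 2 falls under median-of-ratios scaling and 1 under quantile normalization.

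The pentose phosphate pathway makes the ribose phosphate that PRPP synthetase uses. Of 6 tested genes 0 were called by limma, and the median log2 difference was -0.20. The transaldolase gene taldo1, its most abundant gene, read 427 and 379 TPM in the mutants against 459 and 485 TPM in the siblings (log2 difference -0.23, limma adjusted p = 0.114). With voom 1 of the 6 was called lower, and 2 of the 6 had an unadjusted p under 0.05 in limma.

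The pathway most like this one builds pyrimidines and deoxynucleotides. Of 16 tested genes of that list 7 fell, 1 rose and 8 did not pass, with a median log2 difference of -0.37, against 5, 0 and 5 of the 10 purine genes with a median of -0.53. The dihydroorotate dehydrogenase gene dhodh read 26.5 and 24.9 TPM in the mutants against 62.6 and 63.0 TPM in the siblings (log2 difference -1.26, limma adjusted p = 0.00387). The UMP synthase gene umps and the CTP synthase gene ctps1a fell by 0.90 and 0.74 in log2 terms. The single rise was nme2b.2, a nucleoside diphosphate kinase gene, at 23.3 and 21.3 TPM in the mutants against 12.1 and 11.6 TPM in the siblings (log2 difference 0.86, limma adjusted p = 0.0111). Its paralog nme2b.1, with which it may share reads, was the most abundant gene of the list. It read 3044 and 2277 TPM in the mutants against 2134 and 2159 TPM in the siblings and did not pass (0.29, limma adjusted p = 0.152). Whether the purine and pyrimidine lists differ was not tested.

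**Figure D5:**
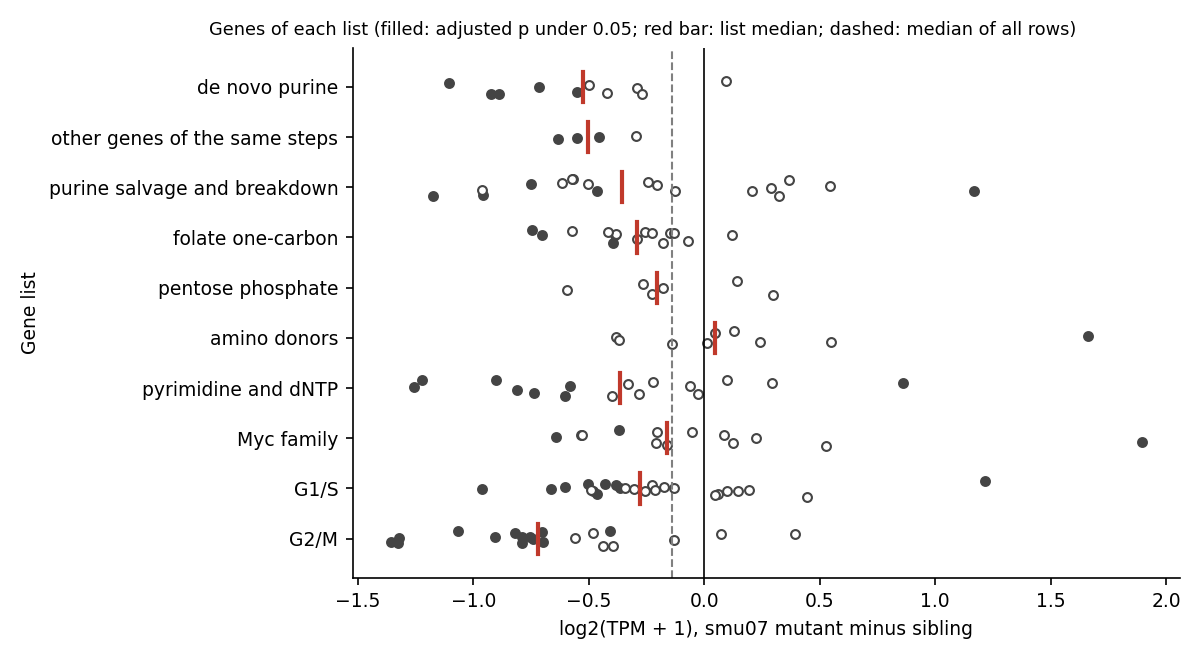
log2(TPM + 1) difference (smu07 mutant minus sibling) of every tested gene in the purine pathway and in related lists, with list medians in red and the median of all rows dashed. Filled points have an adjusted p under 0.05. The purine median (-0.53) lies below that of the folate (-0.29) and pyrimidine (-0.37) lists and above that of G2/M (-0.72).

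Genes of cell division differed in the same libraries. Of 20 tested G2/M genes 13 fell and 0 rose (median log2 difference -0.72), and of 24 tested G1/S and replication genes 9 fell and 1 rose (median -0.28). Beside these counts, 18.6% of all rows tested were called lower and 9.91% higher. The nuclear import gene kpna2 read 177 and 167 TPM in the mutants against 433 and 430 TPM in the siblings, and the mitotic genes top2a, aurka and tacc3 fell by 1.32, 1.07 and 1.36 on the log2 scale. The replication clamp gene pcna read 967 and 992 TPM in the mutants against 1431 and 1312 TPM in the siblings, and the replication genes cdc45 and rpa2 fell by 0.96 and 0.51 on the log2 scale. The single rise was the cyclin E gene ccne2, at 25.9 and 27.9 TPM in the mutants against 10.8 and 11.2 TPM in the siblings (log2 difference 1.22, limma adjusted p = 0.00568). The G1/S counts depended on the scaling, with 5 lower and 2 higher under median-of-ratios scaling and with voom, 3 and 3 under quantile normalization, and 4 and 3 with the rescaled TPM. The share of dividing cells was not measured, and its part in the purine values was not tested.

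Marker genes of cell types differed as well, and their part in the purine values was not tested. Beside all marker counts that follow, 18.6% of all rows tested were called lower and 9.91% higher. Of 9 tested thrombocyte markers 5 fell and 1 rose, and the 10 found summed to 273 and 238 TPM in the mutants against 393 and 423 TPM in the siblings. Of 14 tested erythroid markers 9 fell and 0 rose, with sums of 617 and 735 TPM against 1755 and 1325 TPM, and 5 fell under quantile normalization. Of 12 tested macrophage markers 8 rose and 0 fell, with sums of 1452 and 1410 TPM in the mutants against 719 and 675 TPM in the siblings. The macrophage markers c1qa and c1qc were listed at 0 in all 4 libraries and mpeg1.1 at 0 in both siblings.

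Of 8 tested neutrophil markers 3 rose and 1 fell (sums of 1670 and 1917 TPM in the mutants against 1152 and 1054 TPM in the siblings, with cebp1 listed at 0 throughout). Of 7 tested lymphoid markers 1 rose and 4 fell (928 and 899 TPM against 878 and 722 TPM, with lck listed at 0 throughout), and 2 fell with the rescaled TPM. Most of the lymphoid sum was ccr9a, which was not called, and without it the sums were 119 and 121 TPM in the mutants against 146 and 153 TPM in the siblings. Of 8 tested keratinocyte markers 7 rose and 1 fell. On this list krt91 and anxa1c were listed at 0 in both siblings and epcam at 0 throughout. A row at 0 in both siblings can pass the filter only through the mutant libraries. The 12 keratinocyte markers found summed to 7329 and 7328 TPM in the mutants against 11664 and 10313 TPM in the siblings. Most of that sum was pfn1, the 1 that fell, an actin-binding gene that blood cells also express. Without it the other 11 found summed to 273 and 177 TPM in the mutants against 44.1 and 34.9 TPM in the siblings. Of 6 tested endothelial markers 2 rose and 2 fell (154 and 164 TPM against 227 and 198 TPM). Muscle markers summed to 11.9 and 12.98 TPM in the mutants against 6.17 and 9.73 TPM in the siblings, with 2 of 5 tested higher and 0 lower. Neural markers summed to 19.4 and 15.0 TPM against 3.91 and 8.24 TPM, with 1 of 2 tested higher and 0 lower.

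To name the genes most like the pathway, the median profile of the 10 genes was set against each of 3543 other rows with a mean of at least 20 TPM by Euclidean distance between centred log2(TPM + 1) values. Of the 10 genes ppat lay nearest to that profile, at a distance of 0.0599, and gart farthest, at 0.677. The 5 nearest other rows were lims1, tm9sf4, rnaseh2a, zgc:64051 and canx, at distances of 0.0504 to 0.0611. The nearest, lims1, read 28.6 and 28.3 TPM in the mutants against 39.7 and 43.6 TPM in the siblings. Farther off, rnaseh2a, a subunit gene of an RNase that removes ribonucleotides from DNA, read 73.8 and 70.1 TPM in the mutants against 104 and 115 TPM in the siblings. Whether these rows share a function with the pathway was not tested.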

How the data were processed

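The authors deposited 1 table of TPM values for 4 libraries of sorted zebrafish cells, with rows named by gene symbol. The submitters' processing notes name STAR, featureCounts, FastQC and DESeq2 and the build GRCz11, without versions, and the annotation release is not given in these sources. Because TPM share 1 total per library, they hold no depth, and a gene can read lower when abundant genes take more of that total.

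Whole reads were recovered from TPM ratios between libraries, as the smallest whole numbers in those ratios, for all 23927 rows with values in 2 or more libraries (tolerance 0.0001 reads). The 2178 rows above 0 in only 1 library could not be solved. A factor common to all libraries cannot be seen in such ratios, so recovered reads are lower bounds. The cDNA was amplified and carried no molecular identifiers, so reads do not count molecules.

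Rows with a mean of at least 1 TPM were tested with limma 3.58.1 (R 4.3.3; lmFit, eBayes with trend) on log2(TPM + 1) values, smu07 mutant minus sibling, with Benjamini-Hochberg adjustment over all rows tested, and called at an adjusted p under 0.05. Differences on this scale understate those of low genes. Alternatives were pseudocounts of 0.1 and 5, other filters, 3 scalings, no trend, a replicate block, voom on recovered reads, and leaving out each library. From each other pathway list the most abundant gene and up to 4 called genes with the smallest p were named. RefSeq gene names of GRCz12tu matched all 10 pathway genes and were used only for names and neighbours. The genes, lists and tests were chosen with earlier results of these data known.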

Additional observations from a re-analysis of the deposited data

How the results depend on the processing

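Each of the 10 purine genes was refitted in 14 alternative settings. Of these 140 values 125 kept their direction and their side of the threshold, 11 lost their call (10 of them without a mutant replicate, and ppat under quantile normalization) and 3 gained one. The 1 value that changed sign was gart, at -0.035 without sibling replicate 1 and 0.23 without sibling replicate 2, and the cause was not tested. The count of purine genes called lower was 5 as reported, 5 with the replicate number as a block, and 0 to 7 as 1 library was left out, with 0 without either mutant replicate, where 1 group held a single library assumed to vary like the other group. Over the 9 other pathway lists 44 genes were called lower and 5 higher. The lower count was 24 without a filter, 24 without the trend, 29 under median-of-ratios scaling, 23 under quantile normalization, 27 when rescaled without ribosomal protein genes and mitochondrial rRNA, and 0 to 53 as 1 library was left out. The higher count was 9 under quantile normalization, 9 when rescaled, 9 with voom and 0 to 10 as 1 library was left out. Over all rows, calls numbered 2247 lower and 1196 higher as reported, 1656 and 1397 under median-of-ratios scaling, 1390 and 1329 under quantile normalization, 1369 and 1451 when rescaled, 1124 and 1321 without a filter, and 1682 and 981 with the block. The labels give the groups the same replicate numbers but no shared clutch or day, and deviations of same-numbered libraries correlated at -0.046 across genes, so the numbers were not taken to pair the samples. The summed TPM of the 10 genes was recomputed under median-of-ratios scaling, with rescaled TPM and without each library, and kept its direction in these, with a log2 ratio of -0.73 to -0.55. Under quantile normalization the median of the Myc family changed sign, to 0.01. TPM keeps no depth, and 2 libraries per group limit every test.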

Other observations

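The amino acid supply of the purine ring and the Myc family were counted among the other pathway lists above, without naming their genes. Members of the Myc family are known to activate purine genes in mammals. Of 9 tested genes that supply glutamine, aspartate or glycine 1 rose and 0 fell, with a median log2 difference of 0.05. Beside these counts, 9.91% of all rows tested were called higher and 18.6% lower. The riser was glula, a glutamine synthetase gene, at 131 and 133 TPM in the mutants against 52.7 and 31.8 TPM in the siblings (log2 difference 1.66, limma adjusted p = 0.00813). The most abundant gene of that list, the mitochondrial aspartate aminotransferase gene got2b, read 251 and 222 TPM in the mutants against 249 and 271 TPM in the siblings and did not pass (limma adjusted p = 0.338). The higher count of the list was 2 under quantile normalization and 2 with the rescaled TPM, and the lower count was 0 in both.

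Of 13 tested genes on the Myc family list 3 fell and 1 rose, with a median log2 difference of -0.16 that was 0.01 under quantile normalization. Beside these counts, 18.6% of all rows tested were called lower and 9.91% higher. The most abundant, mych, read 427 and 442 TPM in the mutants against 517 and 456 TPM in the siblings and did not pass (limma adjusted p = 0.228). The genes max, mxd4 and mlx of this list fell by 0.37, 0.64 and 0.54 on the log2 scale. These calls depended on the scaling, since limma called 0 of the 13 lower under median-of-ratios scaling, quantile normalization and the rescaled TPM, where 6, 4 and 6 had an unadjusted p under 0.05 in either direction, and voom called 2 lower. The riser was mycn, at 16.1 and 13.3 TPM in the mutants against 4.45 and 2.24 TPM in the siblings (log2 difference 1.90, limma adjusted p = 0.00914).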
